A study of Homo sapiens with 6 samples.

Results

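The cyclins and kinases that drive cells through G1 phase were examined together with CDC25A and RB1. They were CCND1, CCND2, CCND3, CDK4, CDK6, CCNE1, CCNE2, CDK2, CDC25A and RB1, 10 of the 17687 genes in the deposited table, chosen by name for their role in the step from G1 to S phase. All 10 were among the 14005 genes that passed a filter on low counts, CCND2 with few counts. The RNA came from KHM-5M, an established line of human anaplastic thyroid cancer. It was sequenced from control cells given PBS, from cells given sodium selenite (SS), and from cells given SS with N-acetylcysteine (SS+NAC), a thiol antioxidant. Each group had 2 libraries, which the study's methods call biological replicates. The dose of SS and the time of exposure in these libraries were not given in the sources used here, and there was no group with NAC alone.

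Progress through G1 depends on cyclin D bound to CDK4 or CDK6 and later on cyclin E bound to CDK2. These kinases phosphorylate the retinoblastoma protein, encoded by RB1, which then releases E2F transcription factors that switch on genes for DNA replication. CDC25A removes inhibitory phosphates from CDK2, and a group of small proteins, the CDK inhibitors, block the kinases. Cyclin D1 is often found at a high level in thyroid carcinomas.

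In SS, RB1, CDK6 and CCNE2 were lower than in control and CDK2 was higher, by at most 1.58-fold. Against SS+NAC, SS had lower RB1, CDK6 and CCND2 and higher CDK4, CCNE1 and CDK2. Most of these calls ended when an offset for transcript length was added. It left RB1 and CCNE2 against control, beside 9.23% of all tested genes, and none against SS+NAC, beside 14.4%. Against SS+NAC 2 members had an unadjusted p under 0.05 in edgeR with the offset, as did 4326 of the 14005 genes. DESeq2 was not run with the offset. Without the offset, DESeq2 called neither CCNE2 nor CDK2 against control, and it called CCND1 and CDK4 there. The CCNE2 and CDK2 calls against control and the number of members called also depended on single libraries, as given below. CCND1, CCND3 and CDC25A were called in no comparison by edgeR fitted to all 6 libraries by group alone. The called genes were 4 of 10 in SS against control, where 40.0% of all tested genes were called, and 6 of 10 in SS against SS+NAC, where the share was 42.7%. A gene was called at an adjusted p of at most 0.05, from the quasi-likelihood test of edgeR with Benjamini-Hochberg adjustment over all 14005 genes. Both comparisons used the same SS libraries, and the comparisons with control the same control libraries. The share of members called in SS against control was near that of all genes.

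Library totals ran from 17645545 to 23810056 expected counts, and 16080 to 16476 genes had a count. Markers of thyroid cells were looked at first. PAX8, a transcription factor of the thyroid lineage, stood between 104 and 134 TPM (transcript abundance scaled to the same sum in each library) and HHEX between 25.9 and 29.8 TPM. NKX2-1 was at most 0.20 TPM and TG, thyroglobulin, at most 0.30 TPM, so that both were near 0. The mesenchymal marker VIM reached 6621 TPM and the epithelial keratin KRT8 1398 TPM, while CDH1 was at most 0.29 TPM.

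Markers of other cell types were led by single genes. Of 4 immune markers, CD68 held nearly all of the summed level, which was 83.4 and 87.7 TPM in control, 82.9 and 71.1 TPM in SS and 102 and 110 TPM in SS+NAC, while PTPRC stayed at or below 0.77 TPM and CD3E was 0 in 5 of 6 libraries. Of 5 fibroblast markers, COL1A1 led the sum. This sum was 229 and 227 TPM in control, 189 and 175 TPM in SS and 284 and 266 TPM in SS+NAC. LUM stood between 4.17 and 8.8 TPM and PDGFRB between 3.42 and 5.74 TPM. DCN was at most 0.19 TPM and COL1A2 at most 0.040 TPM. The 3 endothelial markers summed to at most 0.71 TPM. Their part in the results below was not tested. The samples were bulk RNA, in which fewer cells of a kind and less RNA per cell cannot be told apart.

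Promoter sequences of 6 of the 10 members were found in RefSeq (GRCh38.p14), in 9 windows. The start sites used lie inside the gene locus of GENCODE by 172724 bases for RB1, 3703 for CDK4 and at least 1669 for CCND3, so the bases before the outer starts of these were not searched. The 250 bases before the start site are printed for CDC25A and CCNE1, which E2F is known to switch on, and for CDK4 and CDK6, the kinase genes of the D cyclins. The E2F motif was searched as TTTCCCGC, TTTCGCGC, TTTGCCGC and TTTGGCGC and the Sp1 motif as GGGCGG, on both strands, and matches are in capitals. No match of one motif overlapped a match of the other. The windows lie at chr3:48188418-48188667 (minus strand), chr19:29811741-29811990 (plus strand), chr12:57752311-57752560 (minus strand) and chr7:92836574-92836823 (minus strand).
CDC25A: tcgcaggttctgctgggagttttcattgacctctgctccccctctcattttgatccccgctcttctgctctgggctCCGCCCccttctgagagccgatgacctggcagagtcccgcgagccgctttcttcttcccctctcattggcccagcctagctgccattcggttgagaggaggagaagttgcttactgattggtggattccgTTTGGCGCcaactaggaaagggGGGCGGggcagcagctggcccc
CCNE1: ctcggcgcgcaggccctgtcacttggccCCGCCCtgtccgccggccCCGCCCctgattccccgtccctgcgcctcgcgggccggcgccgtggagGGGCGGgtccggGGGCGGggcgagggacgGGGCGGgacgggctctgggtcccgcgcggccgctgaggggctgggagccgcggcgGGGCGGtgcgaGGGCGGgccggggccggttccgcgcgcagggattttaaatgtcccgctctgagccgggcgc
CDK4: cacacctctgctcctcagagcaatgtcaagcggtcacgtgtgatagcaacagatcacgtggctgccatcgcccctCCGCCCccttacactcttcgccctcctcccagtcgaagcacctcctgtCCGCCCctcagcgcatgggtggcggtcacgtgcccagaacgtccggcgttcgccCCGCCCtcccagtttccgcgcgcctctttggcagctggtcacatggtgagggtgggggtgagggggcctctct
CDK6: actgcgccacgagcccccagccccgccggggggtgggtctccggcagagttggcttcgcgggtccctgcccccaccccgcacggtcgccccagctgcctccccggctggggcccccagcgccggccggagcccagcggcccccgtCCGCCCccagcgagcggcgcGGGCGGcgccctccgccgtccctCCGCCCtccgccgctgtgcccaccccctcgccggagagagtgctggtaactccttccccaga
The E2F motif was in the CDC25A window, where TTTGGCGC began 44 bases before the start site, and in none of the other 8 windows, that inside RB1 among them. It was in 2.79% of 35116 windows of the same length over all genes. The Sp1 motif, in 42.6% of all windows, occurred 7 times in the CCNE1 window, 3 times each in those printed for CDK4 and CDK6, and 2 times in that of CDC25A. The window of CCNE1 held 81.2% G and C and that of CDC25A 60.0%.

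The members covered a wide range of levels. TPM, which is divided by transcript length, was used to compare genes within a group. In control, CDK4 had the highest level at 347 ± 8.97 TPM (SD, n = 2), followed by CCND1 at 300 ± 0.651 TPM, CCND3 at 141 ± 5.47 TPM and CDK2 at 93.1 ± 3.26 TPM. CCNE2 at 44.0 ± 2.71 TPM and RB1 at 43.0 ± 5.03 TPM overlapped, and so did CDC25A at 19.1 ± 1.46 TPM, CDK6 at 18.8 ± 1.34 TPM and CCNE1 at 16.2 ± 2.86 TPM, each with its neighbour. CCND2 was lowest at 0.28 ± 0.099 TPM.

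The first 6 places and the last were the same in SS and SS+NAC. In SS, CDK6 at 10.5 ± 0.841 TPM lay below CCNE1 at 15.0 ± 0.134 TPM and CDC25A at 14.8 ± 1.07 TPM, and the values of CCNE1 and CDC25A overlapped. In SS+NAC, CDK6 at 20.7 ± 2.27 TPM overlapped with CDC25A at 18.6 ± 1.21 TPM, and CCNE1 followed at 13.8 ± 1.32 TPM. TPM values of the members were not used for fold changes between groups. Their median over the tested genes was shifted by -0.26 in log2 between SS and control and by -0.35 between SS and SS+NAC, so differences between groups were taken from CPM (counts scaled by library size) with factors from TMM, a scaling by the bulk of the genes.

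**Figure D1:**
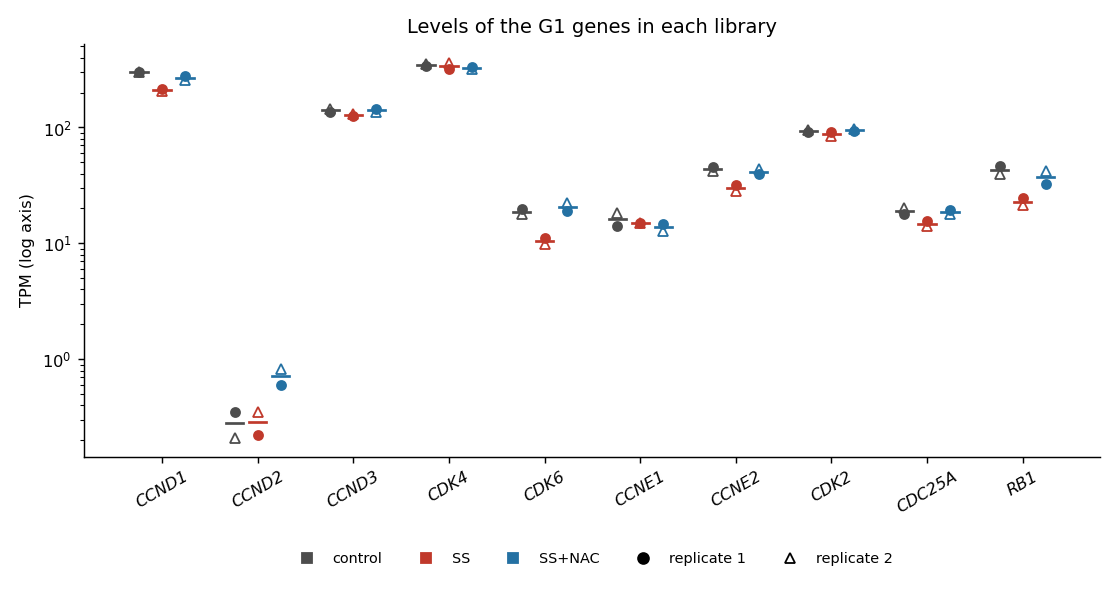
TPM of the 10 genes in each library on a log axis, with control in grey, SS in red and SS+NAC in blue, circles for replicate 1, triangles for replicate 2 and a bar at the mean of the 2 libraries. CDK4, CCND1, CCND3 and CDK2 stand highest in every library and CCND2 stands below 1 TPM.

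Fold changes of SS followed transcript length over the whole table, which bears on each member. Across the 14005 genes, Spearman's rho between the log2 fold change and the effective length was -0.68 in SS against control and -0.64 in SS against SS+NAC, but -0.038 in SS+NAC against control. Libraries of the same group differed along length as well: rho between length and the deviation of replicate 1 from its group mean was 0.30 in SS, 0.058 in control and -0.14 in SS+NAC. Genes are not independent replicates, and these are descriptions. In SS against control, the median log2 fold change was 0.46 in the eighth of the genes with the shortest transcripts and -0.46 in the eighth with the longest. When an offset for length was added to each library, the share of genes called went from 40.0% to 9.23% in SS against control and from 42.7% to 14.4% in SS against SS+NAC, and was 2.01% with and without it in SS+NAC against control. What gave rise to the trend was not tested.

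Effective lengths of the members ran from 1862 bases for CCNE1 to 11860 bases for CDK6. In SS against control, 4 of the 10 had a log2 fold change within 0.10 of the median of the genes in their eighth by length and 7 within 0.12, beside 35.1% and 40.8% of all genes. Against SS+NAC 3 lay within either limit, beside 35.8% of all genes within 0.12, so the count for the members depends on the limit and the comparison. In SS against control CCND1 was at -0.23 beside a median of -0.18, CDC25A at -0.12 beside -0.079, and CDK6 at -0.57 beside -0.46. CCNE1, CCND3, CDK4 and CDK2 stood at 0.16, 0.11, 0.26 and 0.20 beside medians of 0.27, 0.14, 0.14 and 0.14. RB1 at -0.66 beside -0.18, CCNE2 at -0.24 beside 0.032 and CCND2 at 0.35 beside -0.46 lay farther away. With the offset, RB1 and CCNE2 were called in SS against control, 2 of 10 beside 9.23% of all genes. In SS against SS+NAC no member was called, beside 14.4% of all genes. There 2 members had an unadjusted p under 0.05, as did 4326 of the 14005 tested genes. DESeq2 was not run with the offset.

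**Figure D2:**
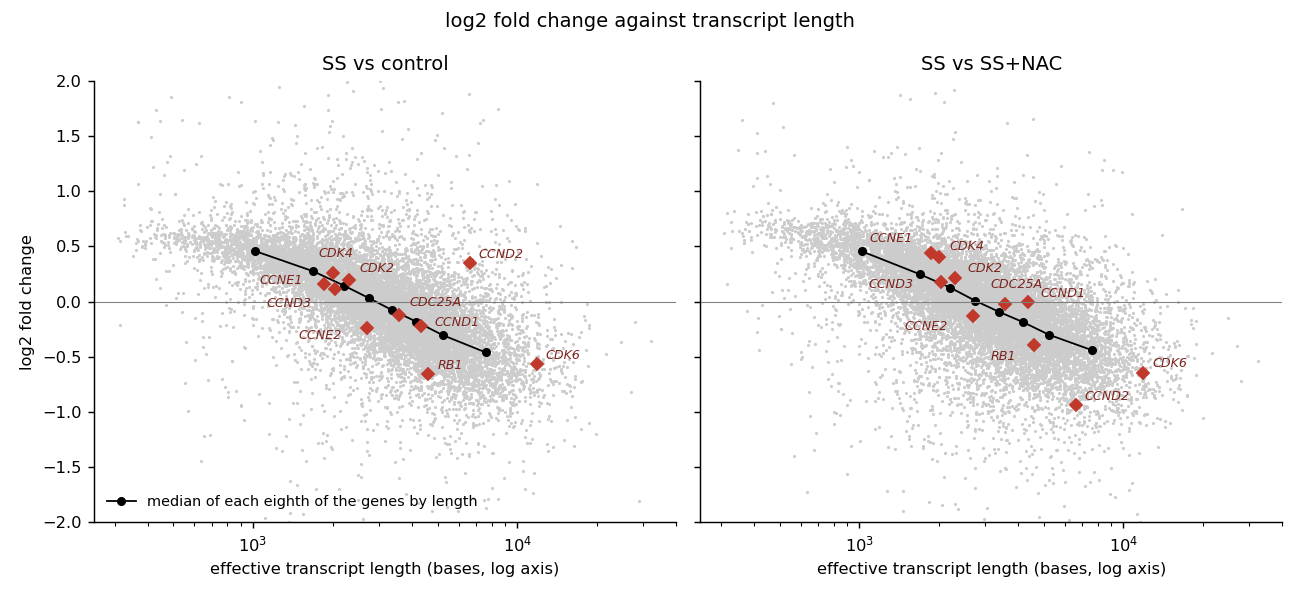
log2 fold change of each tested gene (grey) against its effective transcript length on a log axis, for SS against control and SS against SS+NAC, with the 10 genes as red diamonds and the medians of eighths of the genes as black points. The medians fall from 0.46 to -0.46 on the left and from 0.46 to -0.44 on the right, and genes beyond the range of the vertical axis are not drawn.

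CCND1 encodes cyclin D1, the partner of CDK4 and CDK6 that growth signals induce (chr11:69641087-69654474 on GRCh38, plus strand, GENCODE release 29). Its CPM were 653 and 665 in control, 548 and 580 in SS, and 610 and 522 in SS+NAC. Both SS and both SS+NAC libraries lay below both control libraries, and those of SS lay between those of SS+NAC. The log2 fold change was -0.23 ± 0.089 (SE) in SS against control, with a 95% interval from -0.42 to -0.029 before adjustment and adjusted p = 0.0660. It was -0.22 ± 0.089 in SS+NAC against control (adjusted p = 0.261), and in SS against SS+NAC the interval ran from -0.20 to 0.19 (adjusted p = 0.965). The call in SS against control depended on the fit: the adjusted p was 0.0446 with DESeq2, 0.0203 without SS+NAC replicate 1 and 0.0215 without SS+NAC replicate 2, and the log2 fold change was -0.0096 with the length offset. Without SS+NAC replicate 1, the difference between SS+NAC and control was called as well (adjusted p = 0.0355). Exons of CCND1 overlap those of LTO1 on the other strand over 497 bases, and LTO1 was at 14.8 to 20.9 TPM.

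CCND2 and CCND3 encode the other D cyclins, which bind the same kinases. CCND2 (chr12:4273772-4305350, plus strand) had 21 and 16 expected counts in control, 20 and 33 in SS, and 48 and 62 in SS+NAC. Both SS+NAC libraries lay above the 4 others, while control and SS overlapped. CCND2 was lower in SS than in SS+NAC, with a log2 fold change of -0.94 ± 0.32 (adjusted p = 0.0373), and stood at 1.29 ± 0.34 in SS+NAC against control (adjusted p = 0.0990). At these counts, 1 library decided the outcome: adjusted p was 0.235 without SS replicate 1 and 0.160 without SS+NAC replicate 2 for SS against SS+NAC, and 0.0303 without SS+NAC replicate 1 for SS+NAC against control. DESeq2 gave an adjusted p of 0.115 for SS against SS+NAC, and the length offset a log2 fold change of -0.55 (adjusted p = 0.281).

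CCND3 (chr6:41934933-42050357, minus strand) had CPM of 141 and 154 in control, 149 and 169 in SS, and 149 and 133 in SS+NAC. Control overlapped with both other groups, and both SS libraries lay just above both SS+NAC libraries. Its 95% intervals were -0.090 to 0.31 in SS against control and -0.27 to 0.14 in SS+NAC against control. In SS against SS+NAC the log2 fold change was 0.18 ± 0.091 (adjusted p = 0.147), and without SS+NAC replicate 1 the adjusted p was 0.0334. Of the summed TPM of the D cyclins, CCND1 made up 68.6% and 67.3% in control, 63.0% and 61.3% in SS, and 65.8% and 65.0% in SS+NAC. CCND3 made up nearly all of the rest. The CCND1 share was highest in control and lowest in SS, with no overlap between groups; 2 libraries against 2 allow no two-sided exact permutation p under 0.333, and the transcript of CCND1 is longer than that of CCND3.

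CDK4 and CDK6 encode the kinases that the D cyclins activate. CDK6 (chr7:92604921-92836594, minus strand) has the longest transcript of the members. Its CPM were 118 and 109 in control, 77.1 and 75.7 in SS, and 114 and 125 in SS+NAC. Both SS libraries lay well below the 4 others, and control and SS+NAC overlapped. The log2 fold change was -0.57 ± 0.079 in SS against control (adjusted p = 0.000519), which is 1.48-fold lower, and -0.65 ± 0.078 against SS+NAC (adjusted p = 0.000329). In SS+NAC against control the interval ran from -0.094 to 0.25. With the length offset, CDK6 was at 0.012 (interval -0.15 to 0.17) in SS against control and at -0.090 (-0.25 to 0.071) against SS+NAC, and neither was called.

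CDK4 (chr12:57747727-57756013, minus strand) had CPM of 343 and 363 in control, 377 and 468 in SS, and 337 and 303 in SS+NAC. The SS libraries lay above all others and differed most from each other. CDK4 was higher in SS than in SS+NAC, with a log2 fold change of 0.40 ± 0.11 (adjusted p = 0.0115), and stood at 0.26 ± 0.11 against control (adjusted p = 0.0741). SS replicate 2 carried much of the difference from SS+NAC, as the adjusted p was 0.128 without it, and the length offset brought the log2 fold change to 0.24 (adjusted p = 0.110). Against control, CDK4 was called with DESeq2 (adjusted p = 0.0352), without SS replicate 1 (0.0147), without SS+NAC replicate 1 (0.0262) and without SS+NAC replicate 2 (0.0285). It was at 0.090 without SS replicate 2 (adjusted p = 0.562), 0.22 without control replicate 1 (0.318) and 0.078 with the length offset (0.650), so the difference from control depends on SS replicate 2 and on the offset. Exons of CDK4 overlap those of TSPAN31 on the other strand over 1369 bases, and TSPAN31 was at 15.9 to 28.6 TPM; the sources used here do not say whether strand was used in counting.

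The ratio of CDK4 to CDK6 in TPM was 17.2 and 19.8 in control, 28.9 and 36.6 in SS, and 17.4 and 14.4 in SS+NAC. Both SS libraries lay above all others, and control overlapped with SS+NAC. The transcript of CDK4, at 2005 bases, is shorter than that of CDK6 at 11860 bases. In the fit with the offset, CDK4 and CDK6 stood at 0.078 and 0.012 in SS against control, in place of 0.26 and -0.57, and at 0.24 and -0.090 against SS+NAC, in place of 0.40 and -0.65, so that most of the gap between them went with the offset.

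CCNE1 and CCNE2 encode cyclins E1 and E2, which activate CDK2 late in G1. CCNE1 (chr19:29811898-29824308, plus strand) had CPM of 13.2 and 17.3 in control, 16.4 and 17.9 in SS, and 14.0 and 11.3 in SS+NAC. SS lay above SS+NAC, and the control libraries spanned values of both. CCNE1 was higher in SS than in SS+NAC, with a log2 fold change of 0.44 ± 0.15 (adjusted p = 0.0331), and its interval in SS against control was -0.16 to 0.48. The call was lost without SS replicate 1 (0.50, adjusted p = 0.0594), SS replicate 2 (0.37, adjusted p = 0.176) or SS+NAC replicate 2 (0.29, adjusted p = 0.132), and with the length offset (0.25, adjusted p = 0.261), while the direction stayed the same.

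CCNE2 (chr8:94879770-94896678, minus strand) had CPM of 62.8 and 56.3 in control, 51.0 and 49.4 in SS, and 54.1 and 55.5 in SS+NAC. The groups did not overlap, with control highest and SS lowest. CCNE2 was lower in SS than in control, with a log2 fold change of -0.24 ± 0.080 (adjusted p = 0.0315), or 1.18-fold. With the length offset it was at -0.28 ± 0.076 (adjusted p = 0.0472). The call was lost without control replicate 1 (-0.17, adjusted p = 0.294), control replicate 2 (-0.29, adjusted p = 0.0672), SS replicate 1 (-0.27, adjusted p = 0.0788) or SS replicate 2 (-0.22, adjusted p = 0.153), and with DESeq2 (-0.24, adjusted p = 0.0670), while the direction stayed the same. CCNE2 stood at -0.13 in SS against SS+NAC (interval -0.30 to 0.048). Its exons overlap those of INTS8 on the other strand over 1629 bases, and INTS8 was at 29.4 to 55.0 TPM, so reads of the pair cannot be told apart there without strand.

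CDK2 encodes the kinase of the E cyclins (chr12:55966769-55972784, plus strand). Its CPM were 105 and 113 in control, 124 and 126 in SS, and 109 and 106 in SS+NAC. Both SS libraries lay above the 4 others, and control and SS+NAC overlapped. CDK2 was higher in SS than in control, with a log2 fold change of 0.20 ± 0.072 (adjusted p = 0.0479), and than in SS+NAC, at 0.22 ± 0.072 (adjusted p = 0.0325). Both values are close to the threshold. Leaving out any library of SS or control ended the call against control, with log2 fold changes between 0.15 and 0.28 and adjusted p between 0.0826 and 0.365, DESeq2 gave 0.0550, and the length offset moved the log2 fold change to 0.086 (adjusted p = 0.464). Against SS+NAC, the adjusted p was 0.0783 without control replicate 1, 0.0861 without SS replicate 1, 0.146 without SS replicate 2, 0.0850 without SS+NAC replicate 2 and 0.244 with the offset.

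CDC25A, the phosphatase that activates CDK2 (chr3:48157146-48188402, minus strand), had CPM of 32.3 and 37.2 in control, 31.7 and 32.3 in SS, and 35.0 and 30.1 in SS+NAC. The values of SS and SS+NAC overlapped, and the upper SS library lay just below the lower control library. No comparison was called. The log2 fold change was -0.12 in SS against control, with an interval from -0.35 to 0.097, which corresponds to between 0.787 and 1.07 of the control level. The intervals were -0.32 to 0.12 in SS+NAC against control and -0.25 to 0.19 in SS against SS+NAC. With the length offset, SS against control stood at -0.0095 (interval -0.23 to 0.21).

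RB1 encodes the protein that the G1 kinases phosphorylate (chr13:48303726-48599436, plus strand). Its CPM were 108 and 93.4 in control, 65.6 and 62.1 in SS, and 76.6 and 91.3 in SS+NAC. The groups did not overlap, with control highest and SS lowest. In SS against control the log2 fold change was -0.66 ± 0.10 (adjusted p = 0.000847), or 1.58-fold lower. Against SS+NAC it was -0.40 ± 0.10 (adjusted p = 0.0103), and in SS+NAC against control -0.26 ± 0.10 (adjusted p = 0.234). RB1 was called in SS against control without any one of the 6 libraries, and stood at -0.41 ± 0.094 with the length offset (adjusted p = 0.0237). Against SS+NAC the call was lost without SS replicate 2 (adjusted p = 0.0821) and with the offset (0.288), and in SS+NAC against control it was gained without SS+NAC replicate 2 (0.0398).

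**Figure D3:**
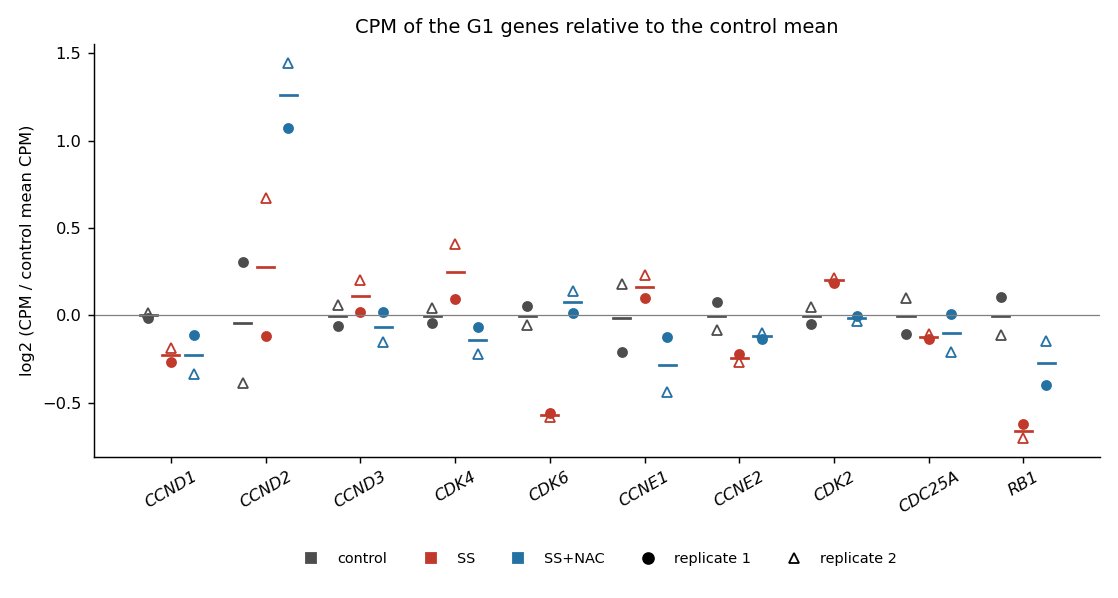
log2 ratio of the CPM of each library to the mean CPM of control for the 10 genes, with control in grey, SS in red, SS+NAC in blue, circles for replicate 1, triangles for replicate 2 and a bar at the mean of the 2 log2 ratios. Both SS libraries lie below the others for CDK6, CCNE2 and RB1 and above them for CDK2 and CDK4.

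Counted over the members, the groups did not overlap in CPM for 7 of 10 in SS against control, 2 of them higher and 5 lower in SS, beside 73.2% of all tested genes. They did not overlap for 5 in SS+NAC against control, beside 47.6%, and for 8 in SS against SS+NAC, 4 higher and 4 lower in SS, beside 70.4%. In TPM, whose median is shifted between groups, 0 were higher and 6 lower in SS against control beside 14.3% and 59.5% of all genes, and 1 was higher and 8 lower against SS+NAC, beside 9.98% and 65.2%, so these directions depend on the scaling. Of the 4 members called in SS against control, 1 was higher and 3 were lower, where 18.6% of all tested genes were called as higher and 21.4% as lower. Of the 6 called against SS+NAC, 3 were higher and 3 lower, with 19.6% and 23.1% of all genes. The median log2 fold change of the members was -0.0060 in SS against control and -0.016 against SS+NAC, beside 0.0030 and -0.034 over all tested genes. In SS+NAC against control edgeR called 0 of 10, where 2.01% of all genes were called. DESeq2 also called 0, beside 321 of the 14005 tested genes. Without adjustment, 3 members, CCND1, CCND2 and RB1, had an edgeR p under 0.05, as did 2256 of the 14005 genes.

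**Figure D4:**
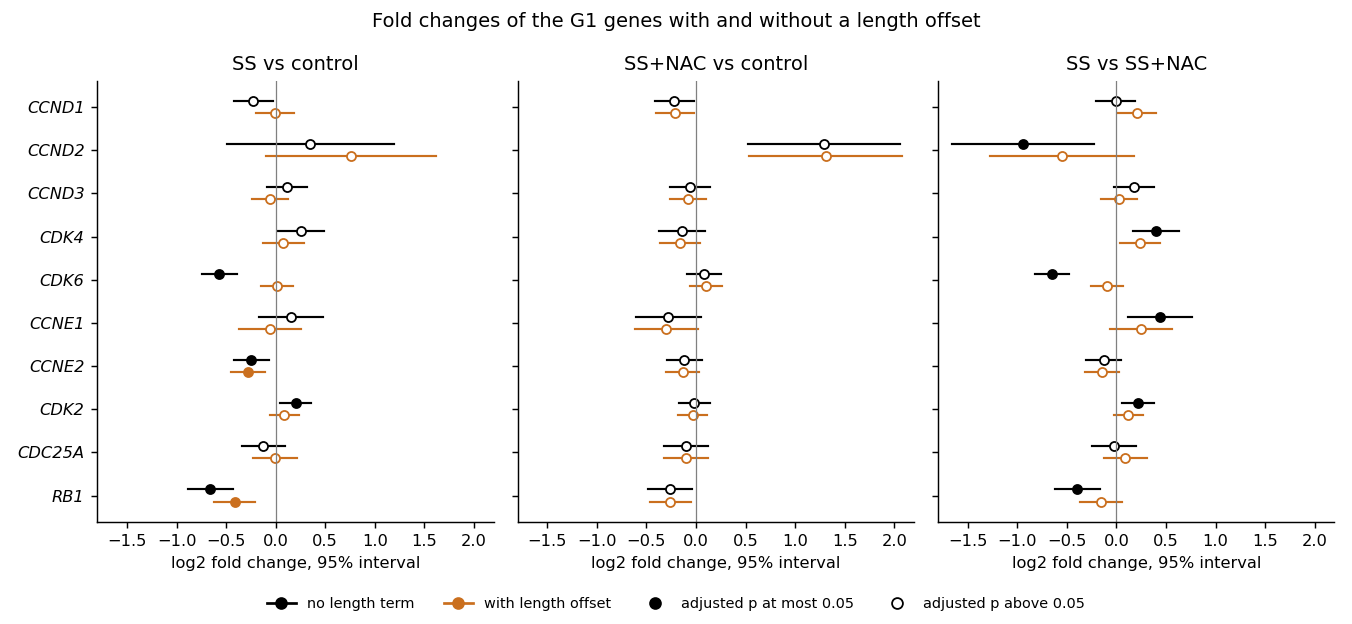
log2 fold changes of the 10 genes with 95% intervals in the 3 comparisons, in black without a length term and in orange with the length offset, filled where the adjusted p was at most 0.05. With the offset, RB1 and CCNE2 are the filled points left, both in SS against control.

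Other genes of the G1 pathway were counted in 4 lists of 52 genes, all of them tested. In SS against control 24 of the 52 were called, 15 higher and 9 lower, or 46.2% beside 40.0% of all genes, and in SS against SS+NAC 27, 20 higher and 7 lower, or 51.9% beside 42.7%. With the length offset 3 and 5 were called, each of them higher in SS, or 5.77% and 9.62% beside 9.23% and 14.4% of all genes, so that the share was no longer above that of all genes. In SS+NAC against control edgeR called 0 of the 52, beside 2.01% of all genes, and DESeq2 called 0. Of the 52, 7 had an unadjusted edgeR p under 0.05, as did 2256 of the 14005 tested genes. The median effective length of a list was 1987 bases for the CDK inhibitors, 3962 for RB and E2F partners, 2036 for CDK activation and cyclin turnover, and 2838 for G1/S genes driven by E2F, beside 3048 over all tested genes.

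CDK inhibitors were called as higher in SS against control for 3 of 7 and against SS+NAC for 5 of 7, and none was called as lower. Of all tested genes 18.6% and 19.6% were called as higher, and 40.0% and 42.7% in either direction. Their median log2 fold changes were 0.30 and 0.54, and with the length offset 0.16 and 0.24. CDKN1A encodes p21, a target of p53 that inhibits CDK2. Its CPM were 14.2 and 14.5 in control, 31.7 and 24.8 in SS, and 17.2 and 18.0 in SS+NAC, so that both SS libraries lay above the 4 others. CDKN1A rose by 0.98 ± 0.12 on the log2 scale in SS against control (adjusted p = 0.000312) and by 0.68 ± 0.12 against SS+NAC (adjusted p = 0.00126). It was the one gene of this list called with the offset, at 0.83 (adjusted p = 0.00430) and 0.55 (adjusted p = 0.0162).

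CDKN1C, which encodes p57, had CPM of 11.2 and 10.7 in control, 17.0 and 16.2 in SS, and 9.36 and 12.3 in SS+NAC. It was higher in SS than in control by 0.61 ± 0.13 (adjusted p = 0.00508) and than in SS+NAC by 0.62 ± 0.13 (adjusted p = 0.00387). CDKN2A, the gene of p16 and ARF, had the highest mean TPM of the list over the 3 groups but not in control, where it was at 58.0 TPM, and was higher in SS than in control by 0.57 ± 0.079 (adjusted p = 0.000526). CDKN2D, which encodes p19, was higher in SS than in SS+NAC by 0.62 ± 0.12 (adjusted p = 0.00273). With the length offset these were not called, at 0.34 for CDKN1C and 0.16 for CDKN2A against control and 0.24 for CDKN2D against SS+NAC.

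RB and E2F partners were called as lower in SS than in control for 5 of 12, with none called as higher. Against SS+NAC 4 were called as lower and 1 as higher. Of all genes 21.4% and 23.1% were called as lower in these comparisons. In either direction 41.7% of the list was called in each comparison, beside 40.0% and 42.7% of all genes. The list's median was -0.079 in SS against control and 0.014 against SS+NAC. RBL2 and RBL1 encode p130 and p107, the relatives of the retinoblastoma protein. RBL2 was at -0.47 ± 0.094 in SS against control (adjusted p = 0.00313) and -0.46 ± 0.093 against SS+NAC (adjusted p = 0.00293), and RBL1 at -0.32 ± 0.072 (adjusted p = 0.00523) and -0.50 ± 0.071 (adjusted p = 0.000566). E2F7, a repressor of the E2F family, was at -0.41 ± 0.075 (adjusted p = 0.00189) and -0.54 ± 0.074 (adjusted p = 0.000525). RBL1 was not called against control without control replicate 2 (adjusted p = 0.0678).

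Effective lengths were 4384 bases for RBL2, 5750 for RBL1 and 5450 for E2F7, and with the length offset none of these was called. In SS against control RBL1 then stood at 0.027, RBL2 at -0.25 and E2F7 at -0.087. Against SS+NAC RBL1 stood at -0.16, RBL2 at -0.24 and E2F7 at -0.22. TFDP1, a partner of E2F proteins, had the highest mean TPM of the list over the 3 groups, with 199 TPM in control, and was not called. With the offset TFDP2, another such partner, was the one gene called in either comparison, at 0.42 ± 0.077 in SS against control (adjusted p = 0.00963). Without the offset it stood at 0.068 (adjusted p = 0.516), where the SS libraries were at 40.8 and 43.9 CPM beside 40.7 and 40.1 CPM for control, so this call came with the offset on a transcript of 5755 bases. TFDP2 was singled out after its values were seen.

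In the list of CDK activation and cyclin turnover, 11 of 17 were called in SS against control, 7 higher and 4 lower, and 12 against SS+NAC, 9 higher and 3 lower, or 64.7% and 70.6%, beside 40.0% and 42.7% of all genes. The medians were 0.15 and 0.20. CKS2 and CKS1B encode small subunits of the cyclin-dependent kinases and have short transcripts of 591 and 795 bases. CKS2 was higher in SS than in control by 0.42 ± 0.076 (adjusted p = 0.00195) and than in SS+NAC by 0.68 ± 0.076 (adjusted p = 0.000258). CKS1B, the most abundant of the list at 375 TPM in control, was higher by 0.39 ± 0.082 (adjusted p = 0.00410) and 0.41 ± 0.081 (adjusted p = 0.00260). FBXW7, of the ubiquitin ligase that marks cyclin E for breakdown, was lower, at -0.48 ± 0.11 (adjusted p = 0.00622) and -0.56 ± 0.11 (adjusted p = 0.00227).

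Without control replicate 1, CKS1B was not called against control (adjusted p = 0.0568), and without control replicate 2 neither was FBXW7 (adjusted p = 0.0837). With the length offset edgeR called 0 of the 17 in SS against control, beside 9.23% of all genes, and DESeq2 was not run. In that comparison 3 of the 17 had an unadjusted p under 0.05, as did 3555 of the 14005 tested genes. Against SS+NAC 1 was called, beside 14.4% of all genes. It was WEE1, singled out after its values were seen. CKS1B then stood at -0.098, CKS2 at -0.13 and FBXW7 at -0.26 (adjusted p = 0.173) in SS against control. Against SS+NAC CKS1B stood at -0.092, CKS2 at 0.086 and FBXW7 at -0.34 (adjusted p = 0.0574) with the offset. The list's medians were -0.036 and -0.025.

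Of the G1/S genes driven by E2F, 5 of 16 were called as higher in SS than in control and 5 of 16 as higher than in SS+NAC. None was called as lower. The list's share lies between the 18.6% and 19.6% of all genes called as higher and the 40.0% and 42.7% called in either direction. The medians were 0.061 and 0.10, and with the offset 0.091 and 0.15. PCNA, the sliding clamp of DNA replication, was the most abundant at 470 TPM in control. Its CPM were 308 and 316 in control, 439 and 454 in SS, and 312 and 308 in SS+NAC, and it was higher in SS by 0.52 ± 0.072 against control (adjusted p = 0.000537) and 0.53 ± 0.072 against SS+NAC (adjusted p = 0.000496). TK1, thymidine kinase, was higher by 0.39 ± 0.11 (adjusted p = 0.0155) and 0.43 ± 0.11 (adjusted p = 0.00877), but SS replicate 2 decided both calls, with adjusted p of 0.150 and 0.0973 without it, and the first was also lost without control replicate 1 (0.110).

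SLBP, which binds the stem loop of histone mRNA, was higher in SS than in control by 0.39 ± 0.068 (adjusted p = 0.00160), and UNG, a DNA repair enzyme, was higher than in SS+NAC by 0.46 ± 0.077 (adjusted p = 0.00124). These remained called with the length offset, SLBP at 0.28 (adjusted p = 0.0252) and UNG at 0.31 (adjusted p = 0.0179). UNG was called against control as well, but there only without the offset. PCNA and TK1 were not called with the offset, PCNA at 0.17 (adjusted p = 0.127) against control and 0.19 against SS+NAC.

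**Figure D5:**
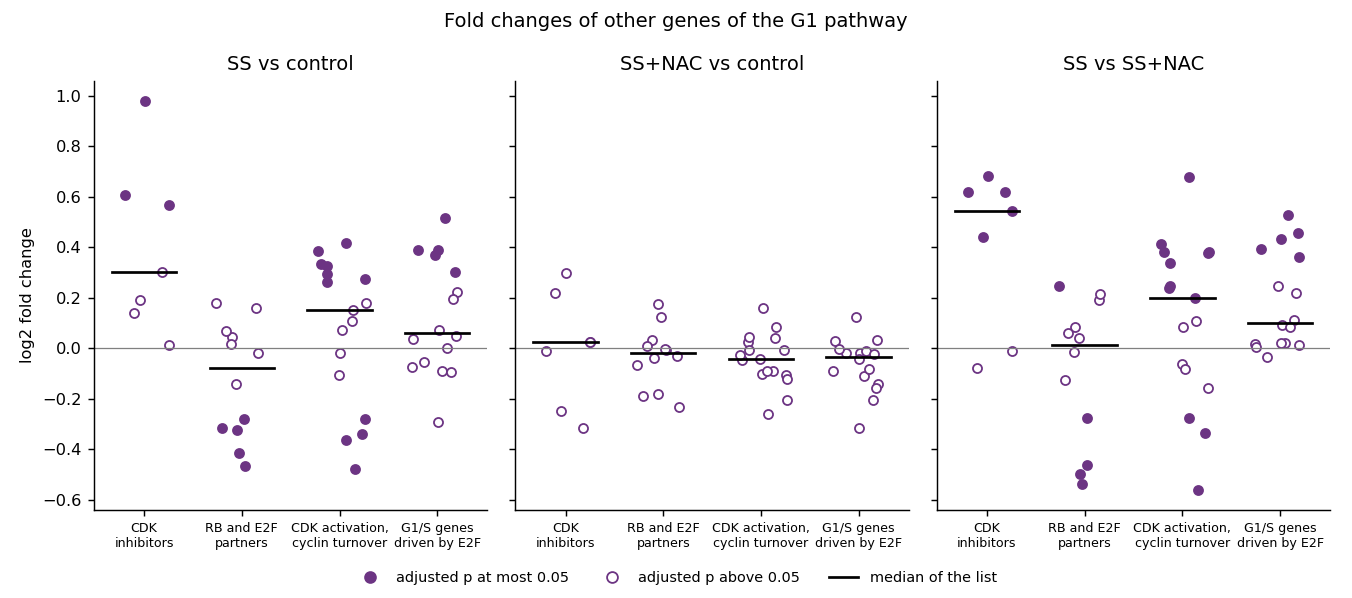
log2 fold changes of the 52 other genes of the G1 pathway in 4 lists and 3 comparisons, without a length term, filled where the adjusted p was at most 0.05 and with a bar at the median of the list. The medians of the CDK inhibitors are 0.30 and 0.54 in the comparisons of SS, and no point is filled in SS+NAC against control.

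Genes with the pattern most like 4 of the members were sought by Pearson's r of log2 CPM over the 6 libraries, among 9526 genes whose CPM averaged 10 or more. For CCND1 they were CCNF (r = 0.997), AKT2 (0.995) and FOXM1 (0.995). For CDK4 they were MOB2 (0.996), TYMS (0.996) and PRMT5 (0.995), and for CCNE1 DDB1 (0.990), SF3B3 (0.989) and PEX10 (0.985). For CDC25A they were ABCB9 (0.983), PRKDC (0.981) and MARS2 (0.979). With 6 points in 3 groups many genes reach a high r: 1234 genes exceeded 0.9 for CDK4, 268 for CCNE1, 223 for CCND1 and 56 for CDC25A. Among the members themselves, r was highest for CCNE2 with RB1 (0.964) and lowest for CDK6 with CDK2 (-0.982). These values describe libraries that share their groups and the length trend.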

How the data were processed

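The deposited table holds expected counts, which the authors estimated with RSEM 1.2.12 after filtering reads and mapping them with HISAT2 2.0.4; the submitters' processing notes also name Bowtie2 2.2.5. The TPM and FPKM values in the table were also made by the authors with RSEM. RNA was selected with oligo(dT) and read from one end. Columns of the authors' own comparisons (log2 fold changes, p-values and q-values) and of their group means were not used.

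Expected counts were rounded, filtered with filterByExpr, scaled with TMM and fitted for all 6 libraries in edgeR 4.0.16 (R 4.3.3). Calls used an adjusted p of at most 0.05. The biological coefficient of variation was 6.74%. Effective length was derived from expected counts and FPKM. The length offset was a lowess curve (span 0.3) of each library's log2 CPM deviation on log length. The fit was also tested on simulated data, into which a trend with length was put by construction. That test cannot show whether calls in these data are false, and no conclusion here rests on it. DESeq2 1.42.0, other filters, a replicate block, the compared libraries only, Bonferroni adjustment and leaving out each library were alternatives. Gene positions came from GENCODE release 29. Named pathway genes were, per list and comparison, up to 3 called genes with the largest change whose CPM averaged 1 or more, and the gene with the highest mean TPM over the groups. The members and lists were chosen with earlier results of these data known.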

Additional observations from a re-analysis of the deposited data

How the results depend on the processing

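Of 770 log2 fold changes of single genes under the alternatives other than Bonferroni adjustment, 637 kept their direction and their side of the threshold, and 36 changed direction. A result that stayed uncalled counted as kept, whatever its size. Among these was CCND1 in SS against control, at -0.0096 with the length offset in place of -0.23. With the length offset, the genes called numbered 1292 in SS against control and 2019 in SS against SS+NAC. The members called were then 2 and 0, and the other G1 pathway genes called 3 and 5. Bonferroni adjustment, given below, left fewer genes called in both of these comparisons. With a replicate block and the length offset together, the genes called were 851 and 1366, the members 1 and 0, and the pathway genes 2 and 4. Both of these fits turned the sign in SS against control to -0.059 for CCND3, -0.098 for CKS1B, -0.13 for CKS2 and 0.027 for RBL1, to 0.012 and 0.011 for CDK6 and to -0.055 and -0.051 for CCNE1. In SS against SS+NAC they turned it to 0.21 for CCND1, -0.092 for CKS1B, and 0.092 and 0.091 for CDC25A. What caused these shifts was not tested, since the offset removes any change that follows length.

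The labels do not say whether same-numbered replicates belong together. Their deviations from the group means correlated over genes at 0.11 for control and SS, -0.11 for control and SS+NAC and -0.17 for SS and SS+NAC. Deviations within a group also ran along length, so these values do not decide it. With the replicate block, 2 members were called in SS against control, where CCNE2 and CDK2 passed the threshold no longer, and 5 in SS against SS+NAC; the genes called numbered 4857, 211 and 5136 in SS against control, SS+NAC against control and SS against SS+NAC. After the data were seen, the replicate block was also run with the numbers of SS+NAC crossed. In SS+NAC against control this called 1475 genes, 3 members and 5 pathway genes, in place of 282, 0 and 0 without a block. It called 7151 genes in place of 5609 in SS against control, and 7286 in place of 5985 in SS against SS+NAC. What gave rise to this was not tested.

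Bonferroni adjustment left 220, 40 and 191 genes in SS against control, SS+NAC against control and SS against SS+NAC, 0 members in each, and 0, 0 and 1 pathway genes. Members whose groups did not overlap numbered 3 in SS+NAC against control in TPM, beside 45.5% of all genes, in place of 5 in CPM. In SS against control 0 were higher and 6 lower in TPM, beside 14.3% and 59.5%, in place of 2 and 5, and in SS against SS+NAC 1 and 8, beside 9.98% and 65.2%, in place of 4 and 4, with CCND3 and CDK2 above SS+NAC in CPM and below it in TPM. The CDK4 to CDK6 ratio was the same to 3 digits in FPKM.

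For CCND1 in SS against SS+NAC, whose log2 fold change was near 0, the sign turned to 0.021 with DESeq2 size factors and with the DESeq2 Wald test, 0.016 with at least 10 counts in every library and 0.0078 with the compared libraries only. For CDC25A it turned to 0.00066 and 0.00074 with DESeq2 size factors and the Wald test.

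Leaving out each library in turn gave between 2 and 6 members, 3118 and 6579 genes and 12 and 29 pathway genes called in SS against control. In SS+NAC against control the ranges were 0 to 2, 98 to 1086 and 0 to 4, and in SS against SS+NAC 2 to 7, 3250 to 6339 and 15 to 29. A group left with 1 library was assumed to vary like the others. Sign changes occurred for CCND1 in SS against SS+NAC (-0.11 to 0.11), CCND2 (-0.094 to 0.70) and CCNE1 (-0.018 to 0.40) in SS against control, CCND3 (-0.15 to 0.018) and CDK2 (-0.068 to 0.038) in SS+NAC against control, and CDC25A in SS against control (-0.22 to 0.012), SS+NAC against control (-0.22 to 0.012) and SS against SS+NAC (-0.13 to 0.089). Each of these results was not called with all libraries.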
